A study of Mus musculus with 10 samples.

Results

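Genes that keep cells epithelial, Esrp1, Esrp2, Grhl1, Grhl2, Ovol1, Ovol2 and Elf3, were followed as a set of 7 through 10 mouse mammary carcinoma lines. The 7 genes were taken by symbol from the 55418 named genes of the gene table, with earlier results of these data known. Counts of members that changed alike are therefore a description only. All 7 passed the filter on low counts that left 19936 genes for testing. RNA sequencing gave 1 library per line. The parental line, 4T1-hHER2, is a BALB/cfC3H mammary tumour line made by lentivirus to carry human HER2 and luciferase, and the 9 other lines descend from it and share that change. Per the labels, CTCs (circulating tumour cells) of NSG mice (NOD-SCID-GAMMA, which lack most lymphocytes) that bore the parental tumour in the mammary site gave rise to all 9. Of these, 3 were grown out of fat pad tumours (primary 5, 7 and 8), 3 out of CTCs (CTC 1, 3 and 6) and 3 out of lung metastases (metastasis 5, 3 and 7). The names give the number in each title. The labels give neither the age of the mice nor what a number stands for, and every derived line, the primary ones included, had passed through the blood once.

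Epithelial cells hold their identity through a small circuit of nuclear proteins. Esrp1 and Esrp2 are RNA-binding proteins that set an epithelial pattern of splicing, and Grhl1 and Grhl2 are grainyhead factors that drive genes of cell junctions. Ovol1 and Ovol2 are zinc finger repressors that hold down Zeb1 and other inducers of the epithelial to mesenchymal transition. Elf3 is an epithelial ETS factor. In carcinoma the circuit and the Zeb, Snail and Twist repressors oppose each other.

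The estimated counts per library summed to between 79869760 and 97722716, of which 19.7% to 22.8% belonged to assembled transcripts tied to no gene. Levels are CPM over named genes with TMM factors, so that 3 counts correspond to 0.039 to 0.046 CPM. The labelled cell type was checked against its markers. The epithelial tumour markers Krt8, Krt18, Cdh1 and Epcam were present in every library, with the lowest value of Epcam at 15.7 CPM. Markers of leukocytes (Ptprc, at most 0.232 CPM, with Cd3e and Adgre1 at 0), of lung epithelium (Sftpc and Nkx2-1 at 0) and of keratinocytes (Lor and Ivl at 0) were low, but Foxj1 of the lung list reached 3.62 CPM in primary 7, Ager 1.92 CPM in metastasis 7 and Krt10 of the keratinocyte list 10.8 CPM in primary 8. Of the fibroblast markers, Col1a1 and Col3a1 reached only 2.32 and 0.325 CPM, but Pdgfra reached 269 CPM and Dcn 12.4 CPM in metastasis 5. Of the myoepithelial markers, Krt14, a basal cell keratin, reached 78.3 CPM in primary 7 and Trp63 6.47 CPM in a metastasis line. Krt5 was at 0 in all 10 libraries and Acta2 at most 0.723 CPM. The endothelial markers Pecam1, Cdh5 and Kdr stayed at or below 1.1 CPM.

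The members' targets can be read in the sequences themselves. Exon 11a of Enah, exon 13 of Slk and the alternative exon IIIb of Fgfr2 are shown because they are known to be spliced under the control of the Esrp proteins, and their shares are given below. They were read 5′ to 3′ from GENCODE M21 transcripts (GRCm38), all as coding exons. Enah exon 11a lies at chr1:181911597-181911659 (minus strand), Slk exon 13 at chr19:47627648-47627740 (plus strand) and Fgfr2 IIIb at chr7:130199758-130199905 (minus strand). They are printed whole, with no part marked.
Enah exon 11a: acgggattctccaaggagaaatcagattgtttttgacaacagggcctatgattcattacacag
Slk exon 13: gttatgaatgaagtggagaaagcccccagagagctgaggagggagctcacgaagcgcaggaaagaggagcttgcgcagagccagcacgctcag
Fgfr2 IIIb exon: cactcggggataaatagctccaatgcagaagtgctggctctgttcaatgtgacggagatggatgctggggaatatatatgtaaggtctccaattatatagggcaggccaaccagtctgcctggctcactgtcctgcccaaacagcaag

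A promoter window of RefSeq (GRCm38.p6) was matched for 3 of the 7 members, Grhl1 (2 starts), Ovol2 and Elf3. In the 250 bases before each start, 3 short motifs were searched on both strands: CACCTG (other strand CAGGTG), the E-box read by Zeb and Snail factors, AACNNGTT, a grainyhead core, and CCGTTA (other strand TAACGG), an Ovol core. Their hits do not overlap. The only hit was 1 CACCTG before Elf3, with its first base at position -140 from the start. CACCTG is found in 17.2% of 32851 windows of that length, AACNNGTT in 3.64% and CCGTTA in 2.18%. The windows of Ovol2 (chr2:144331363-144331612) and of the second Grhl1 start (chr12:24580469-24580718) lie inside the GENCODE span of their genes. For these 2 windows the lack of a hit says nothing about the bases before the GENCODE start. The stretch of the Elf3 window that lies before the GENCODE start of the gene, chr1:135258569-135258722 (minus strand), is shown with that hit in capitals, as a match of letters and not a measured binding site.
Elf3: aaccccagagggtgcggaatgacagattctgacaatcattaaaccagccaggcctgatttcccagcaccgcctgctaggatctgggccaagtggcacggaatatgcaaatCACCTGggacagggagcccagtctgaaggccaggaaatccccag

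Esrp1, the epithelial splicing regulator (ENSMUSG00000040728, chr4:11331933-11386783), had the widest range of the 7. It was at 64.0 CPM in the parental line and at 12.6, 122 and 17.7 CPM in primary 5, 7 and 8. In CTC 1, 3 and 6 it was at 2.13, 0.914 and 4.32 CPM, and in metastasis 5, 3 and 7 at 3.23, 0.105 and 45.9 CPM. All 3 CTC lines were below all 3 primary lines, whereas the metastasis lines spread over almost the whole range, with metastasis 7 above primary 5 and primary 8. From primary 7 (9299 counts) to metastasis 3 (8 counts) the span was 1170-fold. The standard deviation of its log2 CPM over the 10 libraries, 3.03, was larger than that of 99.4% of the tested genes.

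Esrp2, its paralog (ENSMUSG00000084128, chr8:106130319-106136974), varied far less, over a 5.61-fold range. It was at 26 CPM in the parental line, at 16.8, 36.0 and 31.2 CPM in primary 5, 7 and 8, at 8.56, 6.41 and 32.2 CPM in CTC 1, 3 and 6, and at 11.5, 7.42 and 23.8 CPM in metastasis 5, 3 and 7. CTC 6 was the only CTC line at the level of primary 7 and 8, so the groups overlapped. Esrp2 shares exon sequence with Nfatc3 on the other strand, which was at 117 to 222 CPM, and no source used here says whether reads were counted by strand, so its counts are uncertain.

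Set against each other per transcript length (TPM, summed over the transcripts of each gene), the pair traded places between lines. Esrp1 exceeded Esrp2 in primary 7 (65.0 against 20.5 TPM), in the parental line (28.8 against 14.2 TPM) and in metastasis 7 (24.8 against 14.3 TPM). In the other 7 lines Esrp2 was the more abundant, at 4.03 to 17.0 TPM. The ratio of Esrp1 to Esrp2 was 0.696 and 0.497 in primary 5 and 8, between 0.113 and 0.23 in the CTC lines, 0.27 in metastasis 5 and 0.0114 in metastasis 3. No CTC line reached the lowest ratio of the primary lines, and of the metastasis lines only number 7 reached it.

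**Figure D1:**
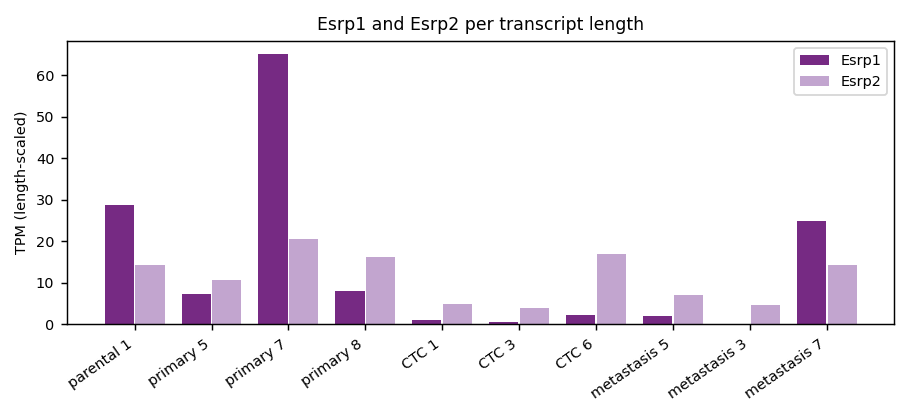
Esrp1 (dark bars) and Esrp2 (light bars) in TPM, the length-scaled level, in each of the 10 libraries, on an axis that starts at 0. Esrp1 is the taller bar in parental 1, primary 7 and metastasis 7 and is near 0 in CTC 3 (0.454 TPM) and metastasis 3 (0.0537 TPM), where Esrp2 stands at 4.03 and 4.72 TPM.

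Grhl2, the grainyhead factor of junction genes (ENSMUSG00000022286, chr15:37233036-37363569), was at 79.7 CPM in the parental line, above all 9 derived lines. It was at 21.1, 55.6 and 69.8 CPM in primary 5, 7 and 8, at 9.67, 18.4 and 61.0 CPM in CTC 1, 3 and 6, and at 17.9, 26.1 and 30.6 CPM in metastasis 5, 3 and 7. The 3 metastasis lines were close together, 24.8 ± 6.44 CPM (SD, n = 3), while primary (48.8 ± 25.1 CPM, SD, n = 3) and CTC lines (29.7 ± 27.5 CPM, SD, n = 3) were not, and all 3 groups overlapped.

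Grhl1, the related factor best known from skin (ENSMUSG00000020656, chr12:24572283-24617391), was at 11.8 CPM in the parental line. It was at 1.02, 4.18 and 3.79 CPM in primary 5, 7 and 8, at 0.480, 0.356 and 2.93 CPM in CTC 1, 3 and 6, and at 0.0911, 0.327 and 5.37 CPM in metastasis 5, 3 and 7. The highest derived line and the lowest were thus both metastasis lines. Per transcript length, Grhl1 was below Grhl2 in every library, with a ratio from 0.00704 in metastasis 5 to 0.217 in metastasis 7 and of 0.194 in the parental line.

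Ovol1 (ENSMUSG00000024922, chr19:5549136-5560646) was at 10.6 CPM in the parental line and at 10.4 CPM in primary 7. The other primary lines, 5 and 8, were at 1.20 and 5.72 CPM, CTC 1, 3 and 6 at 0.253, 0.139 and 2.85 CPM, and metastasis 5, 3 and 7 at 0.273, 0.249 and 3.65 CPM. In each of the CTC and metastasis groups 1 line lay above primary 5 and the other 2 lay well below it.

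Ovol2 (ENSMUSG00000037279, chr2:144305175-144332146) was the least abundant member by mean log2 CPM. It was at 3.81 CPM in the parental line and at 0.321, 2.89 and 0.715 CPM in primary 5, 7 and 8. CTC 3 and 6 had 0.108 and 0.183 CPM, CTC 1 had 0 counts, which allows up to 0.04 CPM (3 counts, counting error only), and metastasis 5, 3 and 7 had 0.039, 0.131 and 0.409 CPM. All 3 CTC lines lay below all 3 primary lines, and of the metastasis lines only number 7 reached the primary range. The annotated transcript that held its counts differed between lines. Ovol2-201 (coding length 822 bases) held 266 counts in the parental line, 217 in primary 7, 51 in primary 8 and 25 in metastasis 7, and 0 in the other 6. Ovol2-202 (coding length 723 bases) held 22 counts in primary 5, 11 in CTC 6, 10 in metastasis 3 and 7 in CTC 3, and 0 in the other 6. No library had counts in both, although so few counts per library leave this assignment by the authors' software uncertain.

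Elf3, the ETS factor (ENSMUSG00000003051, chr1:135253575-135258568), was at 76.5 CPM in the parental line. It was at 15.6, 30.2 and 46.5 CPM in primary 5, 7 and 8, at 8.89, 8.36 and 30.8 CPM in CTC 1, 3 and 6, and at 6.00, 6.46 and 35.9 CPM in metastasis 5, 3 and 7. CTC 6 and metastasis 7 were at the level of primary 7, and the other CTC and metastasis lines were below every primary line. Its transcripts Elf3-201 and Elf3-202 shared the counts almost evenly, with Elf3-201 at 41.8% to 61.4% of the gene per length.

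**Figure D2:**
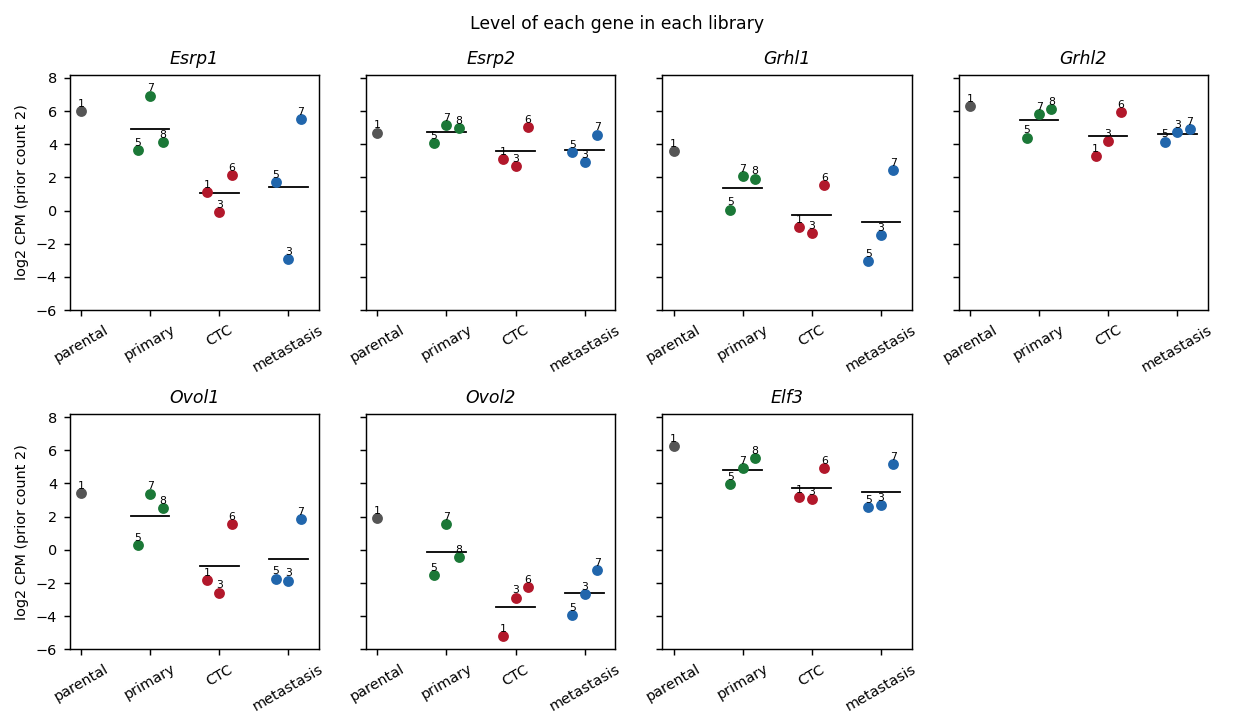
Log2 CPM with a prior count of 2 (vertical axis) of each of the 7 genes by group, with 1 point per library labelled with its number and a bar at the mean of each group of 3. In most panels CTC 6 and metastasis 7 stand above the other lines of their groups, and CTC 1, CTC 3, metastasis 3 and metastasis 5 lie at the bottom.

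The 7 genes ordered the lines alike. CTC 1, CTC 3, metastasis 3 and metastasis 5 were the 4 lowest libraries for 6 of the 7 genes. The exception was Grhl2, for which primary 5 was lower than metastasis 3. This was also so for 6.93% of the tested genes, 1382 in all, and the set of 4 was read from the values, so it is a description only. Parental 1, primary 7, primary 8, CTC 6 and metastasis 7 were the 5 highest for 5 of the 7 genes, against 7.3% of tested genes. In Esrp1 and Ovol2 primary 5 was above CTC 6. The parental line was the highest library for 5 members, against 15.4% of tested genes. Across the 10 libraries, which share the parental line as source, the Pearson correlation of log2 CPM between members ran from 0.56 (Esrp1 with Grhl2) to 0.975 (Grhl1 with Elf3).

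Other genes tracked the members as closely. Among 10258 named genes with a mean log2 CPM of at least 1, Esrp1 was most like Dsg2, a desmosomal cadherin (r = 0.95), then Stk4 (0.948) and Pik3c2a (0.946), and 13 genes had r of at least 0.9 with it. Esrp2 was most like Wdr74 (0.983), Letm1 (0.979) and Gsto1 (0.976), with 203 such genes. Grhl2 was most like F3, the coagulation factor receptor (0.976), Pcdh1 (0.97) and Specc1 (0.964), with 83 such genes. Elf3 was most like Hccs (0.985), Arfgef1 (0.984) and Pde12 (0.984), with 482 such genes, 4.7% of those compared.

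Lines that share a number across groups can be read side by side, although the labels do not say that they share a mouse. Metastasis 5 was below primary 5 for all 7 genes, by 1.18-fold (Grhl2) to 11.2-fold (Grhl1). Metastasis 7 was below primary 7 for 5 of 7, by 1.51-fold (Esrp2) to 7.08-fold (Ovol2), and was above it for Grhl1 (5.37 against 4.18 CPM) and Elf3 (35.9 against 30.2 CPM). Metastasis 3 was below CTC 3 for 3 of 7, with Esrp1 8.72-fold lower on 8 counts against 59.

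The first comparison set the lines from lung metastases against those from fat pad tumours. All 7 genes had a negative log2 change, where 49.5% of tested genes were lower, and the median was -0.98 against 0.01 over all tested genes. None passed: 0 of 7 had an adjusted p under 0.05 (edgeR, quasi-likelihood, Benjamini-Hochberg over all tested genes), as did 0% of all tested genes, and the members' adjusted p ran from 0.594 to 0.896. The log2 changes were -2.75 (SE 1.27) for Ovol2, -2.06 (SE 1.41) for Ovol1 and -1.63 (SE 1.56) for Esrp1. They were -0.98 (SE 0.67) for Grhl2, -0.97 (SE 0.67) for Esrp2, -0.93 (SE 0.81) for Elf3 and -0.64 (SE 1.34) for Grhl1. No member reached an unadjusted p of 0.05, against 8.29% of tested genes, and the groups overlapped for all 7, where they did not overlap in 13.6% of tested genes. The value of Esrp1 rested on single lines and became 0.14 without primary 7 and -4.93 without metastasis 7. Summed CPM of the 4 fibroblast markers ran from 13.6 to 284 in metastasis, from 10.9 to 142 in CTC and from 4.88 to 61.8 in primary lines, and was 5.10 in the parental line. Pdgfra made up most of the highest sums, with 269 CPM in metastasis 5. Col1a1 averaged 1.55 CPM in metastasis, 0.159 CPM in CTC and 1.52 CPM in primary lines, and Col3a1 was at most 0.325 CPM. The part of these markers in the members' levels was not tested. Fewer cells of a type and less RNA per cell cannot be told apart in such bulk libraries.

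Between CTC and primary lines the largest differences were those of Esrp1 and Ovol2. Esrp1 averaged 2.45 ± 1.72 CPM (SD, n = 3) in CTC lines and 50.9 ± 61.9 CPM (SD, n = 3) in primary lines, a log2 change of -4.37 (SE 1.76). Ovol2 averaged 0.0971 ± 0.0920 CPM (SD, n = 3) against 1.31 ± 1.39 CPM (SD, n = 3), a log2 change of -3.74 (SE 1.34). It rests on CTC values of only 0 to 0.183 CPM. In these 2 of 7 genes the groups did not overlap, and CTC was lower, as in 4.02% of all tested genes. Their unadjusted p-values in edgeR's quasi-likelihood test were 0.0341 and 0.0206. An unadjusted p under 0.05 with a lower level was found in 2.54% of tested genes. After adjustment over all tested genes 0 of 7 passed, as did 0% of tested genes, and every member had an adjusted p of 0.994. The other 5 had overlapping groups and log2 changes from -2.42 (SE 1.43) for Ovol1 to -0.72 (SE 0.66) for Grhl2. All 7 were lower, where 50.6% of tested genes were, and their median was -1.26 against -0.01 over all tested genes. With the number in the title as a fixed block, a fit that leaves 1 residual degree of freedom, Esrp1 turned to 1.44.

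No member differed between metastasis and CTC lines by more than the spread within the groups. The groups overlapped for all 7, where 8.28% of tested genes did not overlap, and 0 of 7 passed, against 0.00502% of tested genes (1 gene), with every adjusted p at 1 (edgeR). No member had an unadjusted p under 0.05, against 3.29% of tested genes. Of the log2 changes 5 were positive, led by Esrp1 at 2.74 (SE 1.63), and 2 were negative, Grhl2 at -0.26 (SE 0.66) and Esrp2 at -0.14 (SE 0.67), where 49.6% of tested genes were lower. The 5 positive values all turned without metastasis 7, to -0.56 for Esrp1, -2.57 for Grhl1, -2.04 for Ovol1, -0.18 for Ovol2 and -1.36 for Elf3. The 2 negative values turned without CTC 6, to 0.94 for Esrp2 and 0.83 for Grhl2. Both also turned with limma-voom and with the random and the fixed block, and Esrp2 turned without metastasis 3. Of the positive values, Ovol1 and Elf3 also turned without CTC 1 (-0.10 and -0.28) or CTC 3 (-0.16 and -0.30). Esrp1 turned with the random and the fixed block (-0.50 and -3.12). Grhl1 and Elf3 turned with limma-voom and both blocks, and Elf3 also with all entries of the table. In the test for any difference among the 3 derived groups 0 of 7 passed, as did 0% of tested genes. Ovol2 had an unadjusted p of 0.0303 and an adjusted p of 0.907 (edgeR), and 5.2% of tested genes had an unadjusted p under 0.05.

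The 9 derived lines together were set against the single parental library, whose own variation cannot be measured and was taken to equal that of the others. All 7 genes were lower in the derived lines, as were 46.1% of tested genes, with a median log2 change of -2.33 against 0.10 over all tested genes. The parental value lay above all 9 derived lines for Grhl1, Grhl2, Ovol1, Ovol2 and Elf3, as it did for 15.4% of tested genes, above 8 of the 9 for Esrp1 and above 6 of the 9 for Esrp2. None passed, against 0.0201% of tested genes (4 genes). Ovol2 had the lowest adjusted p of the members, 0.451 by edgeR's quasi-likelihood test, for a log2 change of -3.71 (SE 1.14), unadjusted p = 0.00986. It was the only member with an unadjusted p under 0.05, against 10.3% of tested genes. Grhl1 had -2.60 (SE 1.37), Ovol1 -2.36 (SE 1.42), Esrp1 -2.33 (SE 1.60), Elf3 -1.94 (SE 0.87), Grhl2 -1.27 (SE 0.76) and Esrp2 -0.49 (SE 0.82). The primary lines themselves lay at or below the parental level except for Esrp1 in primary 7 and for Esrp2 in primary 7 and 8.

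**Figure D3:**
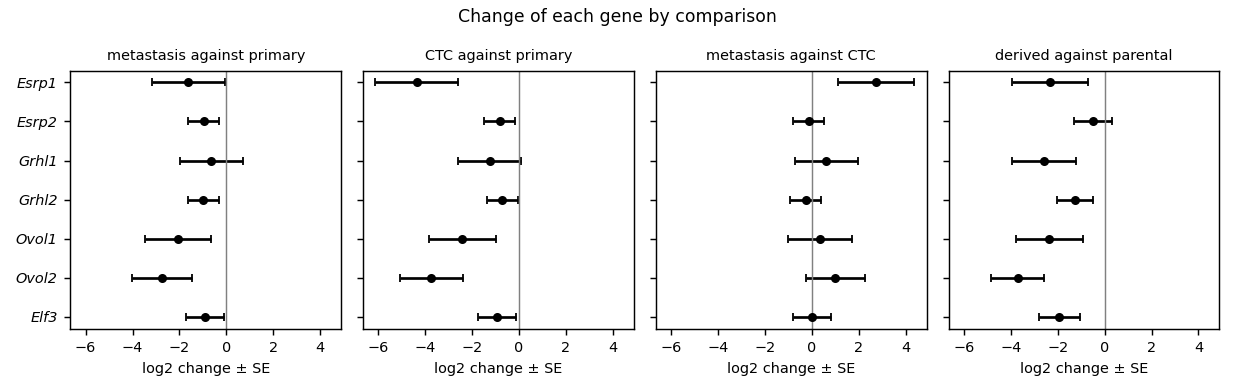
Log2 change (horizontal axis) of each of the 7 genes in the 4 pairwise comparisons, with bars of 1 SE from edgeR's quasi-likelihood test. All points lie left of 0 against primary and against the parental line, with the bars widest for Esrp1, Grhl1, Ovol1 and Ovol2, and metastasis against CTC lies on both sides of 0.

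Among annotated transcripts, 23 of the members' 34 were tested. With edgeR and Benjamini-Hochberg adjustment over 78270 transcripts, none passed in any comparison, against 0% of all transcripts in each comparison of derived groups and 0.0677% in derived against parental. An unadjusted p under 0.05 was found for 0 of the 23 in metastasis against primary (6.35% of all transcripts) and for 3 in CTC against primary (4.09%). It was found for 1 in metastasis against CTC (4.19%), for 2 in the test of any difference (4.74%) and for 3 in derived against parental (7.56%). Esrp1-203 had a log2 change of -4.86 (SE 1.61) between CTC and primary lines. Its adjusted p was 0.999 with edgeR, while DESeq2, which called 692 transcripts there, called it. In CTC 3 and metastasis 3, the lines with the least Esrp1, this transcript held 58 of 59 and 8 of 8 counts. In metastasis 7, where the gene was high, Esrp1-204 held 1544 counts and Esrp1-203 615 of 3364.

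Whether the level of the Esrp pair went with splicing of their known targets was read from transcript shares, a measure that did not enter the choice of the genes. A share is the percentage of a gene's counts per kilobase in transcripts that carry the form. These counts are the authors' software's assignment of reads to transcripts, so binomial intervals are not given for them. Exact permutation tests of 3 lines against 3 cannot go below p = 0.1.

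Enah encodes an actin regulator whose exon 11a is a classic epithelial form. The share with exon 11a was 29.5% in primary 8 (759 counts), 3.19% in primary 5, 2.2% in CTC 3 and 1.65% in metastasis 5. In the parental line, primary 7, CTC 1, CTC 6, metastasis 3 and metastasis 7 it was 0, and 3 counts, the limit that a count of 0 allows, would be 0.194% to 0.844% on the same length-scaled share (counting error only). Only 1 annotated transcript, Enah-202, carries exon 11a, against 8 that lack it. A 0 is thus an assignment by the authors' software and does not show that the exon was absent. The lines with the most Esrp1, primary 7, parental 1 and metastasis 7, were all at 0 on this assignment. The metastasis and primary lines gave an exact permutation p of 0.4 (two-sided).

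Slk encodes a kinase with a cassette exon 13. Its inclusion was 59.0% in primary 7, the line with the most Esrp1, and 28.8% in metastasis 7, but 15.5% in the parental line, which ranked second for Esrp1. The other lines were at 13.6% (primary 5), 24.2% (primary 8), 11.6%, 13.1% and 21.4% (CTC 1, 3 and 6), and 15.3% and 18.1% (metastasis 5 and 3). CTC lines averaged 15.4% ± 5.26 (SD, n = 3) and primary lines 32.3% ± 23.8 (SD, n = 3), with an exact permutation p of 0.2 (two-sided).

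Fgfr2 encodes a growth factor receptor whose IIIb form is the epithelial one. The IIIb share was 95.6% or more in 9 of the 10 lines, including metastasis 3 (99.8%), where Esrp1 was down to 8 counts and Esrp2 was at 7.42 CPM. In primary 8, CTC 1, metastasis 7 and CTC 3 it rested on only 82, 128, 129 and 201 counts over both forms. Metastasis 5 was the exception at 72.2%, with 345 counts in IIIb transcripts and 173 in the others counted. Its Esrp1 and Esrp2 levels, 3.23 and 11.5 CPM, were above those of metastasis 3 and CTC 3. The same line had the highest Pdgfra (269 CPM) and Dcn (12.4 CPM), and their part in this share was not tested. Metastasis and primary lines gave an exact permutation p of 0.2 (two-sided).

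Cd44, an adhesion receptor, was counted as transcripts with variable exons against the standard form. The share with variable exons was 94.6% in primary 7 and 79.7% in metastasis 7, then 69.0% in the parental line. It was 47.0% and 43.0% in primary 5 and 8, 50%, 21.2% and 47.7% in CTC 1, 3 and 6, and 59.9% and 26.5% in metastasis 5 and 3. The 3 lines with the most Esrp1 thus had the highest shares and the 2 with the least, metastasis 3 and CTC 3, the lowest, which is a description of 10 libraries with no test. The exact permutation p between groups was 0.4 to 0.8 (two-sided), and the annotated transcripts also differ in total length.

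Ctnnd1 encodes p120 catenin, whose longer amino-terminal form is the mesenchymal one and whose shorter forms start downstream. A first split, at the most upstream annotated start, was replaced after its shares had been seen, because a single transcript uses that start and 98.4% to 100% fell on the other side in every line. The split used here takes the start of the longest coding sequence, and so these shares were chosen with values known. The downstream class pools first coding bases 84624302, 84620951 and 84616930, against 84624464 for the longest coding sequence. Its share is therefore not that of a single short form. The share with a downstream start was 24.5% in the parental line, 30.6%, 20.8% and 16.2% in primary 5, 7 and 8, 41.1%, 44.8% and 18.7% in CTC 1, 3 and 6, and 38.5%, 40.8% and 52.7% in metastasis 5, 3 and 7. All 3 metastasis lines lay above all 3 primary lines, 44.0% ± 7.61 against 22.6% ± 7.36 (SD, n = 3 each), with an exact permutation p of 0.1 (two-sided), the smallest that this design allows. With the first split the difference was -0.349 in place of 21.4 percentage points. The highest shares were those of metastasis 7, a line high in Esrp1, and CTC 3, a line low in it.

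**Figure D4:**
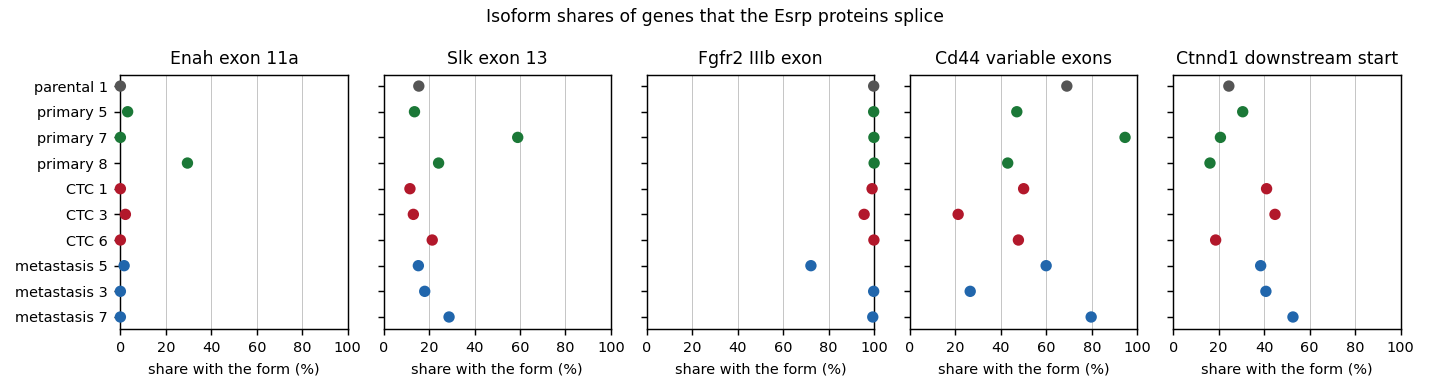
Share in percent (horizontal axis, 0 to 100) of each gene's length-scaled transcript counts in the named form, with 1 point per library coloured by group (grey parental, green primary, red CTC, blue metastasis). Primary 7 stands highest for Slk exon 13 (59.0%) and Cd44 (94.6%), metastasis 5 alone departs from the top for Fgfr2 IIIb (72.2%), and primary 8 stands at 29.5% for Enah exon 11a, where the other lines are at 0 to 3.19%.

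The genes around the circuit were read from lists. Of 27 genes of the epithelial programme (junction, polarity and protease genes), 23 were lower and 4 higher in metastasis than in primary lines. Their median log2 change was -1.09, against 0.01 over all tested genes, of which 49.5% were lower. By edgeR's quasi-likelihood test 0 passed, as did 0% of tested genes. In CTC against primary 21 were lower (50.6% of tested genes) and 6 higher, with a median of -1.20 against -0.01. In metastasis against CTC 14 were lower (49.6%) and 13 higher, and against the parental line 18 were lower (46.1%) and 9 higher. Again 0 were called. These shares of tested genes apply to the lists below too. In edgeR's test 7 had an unadjusted p under 0.05 in metastasis against primary (8.29% of tested genes). In CTC against primary 9 had one and were lower (2.54%). The list was chosen with earlier results known, so this is a description only. Cdh1, which encodes E-cadherin, was at 366 CPM in the parental line, at 107, 627 and 419 CPM in primary 5, 7 and 8, at 94.2, 77.7 and 150 CPM in CTC 1, 3 and 6, and at 88.7, 77.3 and 391 CPM in metastasis 5, 3 and 7. Its 4 lowest lines were those that were lowest for the members. Spint2, a protease inhibitor, was at 224 to 354 CPM. Krt18 and Krt8 did not follow the members. Krt18 was at 1460 CPM in CTC 1 and 303 CPM in metastasis 7, the highest and lowest lines. Krt8 was lowest in the parental line, at 54.7 CPM, and averaged 415 CPM in primary, 497 CPM in CTC and 555 CPM in metastasis lines.

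The list of 9 inducers of the epithelial to mesenchymal transition held Zeb1, Zeb2, Snai1, Snai2, Snai3, Twist1, Twist2, Prrx1 and Foxc2. Of these, 6 were higher and 3 lower in metastasis than in primary lines, likewise 6 and 3 in CTC against primary and in derived against parental. In metastasis against CTC 3 were higher and 6 lower, with 0 called in any comparison. Zeb1, the repressor that Ovol proteins hold down, was low throughout, from 0.397 CPM in the parental line to 3.18 CPM in metastasis 3, and primary 7 held 2.97 CPM of it beside the most Esrp1. Zeb2 was higher, at 37.1 CPM in primary 7 and up to 139 CPM in CTC 6, a line with much Esrp2 and Grhl2. Twist1 was at 78.1, 93.3 and 54.3 CPM in CTC 1, 3 and 6 and at 48.7, 34.8 and 30.4 CPM in primary 5, 7 and 8, groups that did not overlap with CTC higher, as in 3.13% of tested genes, and the log2 change was 0.99 (SE 0.38; edgeR, adjusted p = 0.994). Across the 10 libraries Twist1 correlated with Esrp1 and Esrp2 at r = -0.884 and -0.889, and Zeb1 with them at -0.502 and -0.4. Prrx1 (-0.862 and -0.801), Twist2 (-0.77 and -0.825) and Foxc2 (-0.673 and -0.697) were negative too, and Zeb2 (-0.439 and -0.172) and Snai1 (-0.0899 and -0.0906) weakly so. The list was not of 1 sign: Snai3 correlated with Esrp1 and Esrp2 at 0.77 and 0.925 and with Ovol1 at 0.963. Snai2, at most 0.255 CPM, correlated with the Esrp pair at 0.422 and 0.402. Snai1 was at 16.9 to 35.4 CPM and Foxc2 at 8.64 to 58.3 CPM.

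Of 11 relatives 8 were tested and 0 were called, with 4 higher and 4 lower in each comparison of derived groups and 7 of 8 lower than in the parental line. Grhl3 was at 5.94 CPM in metastasis 7, 3.56 CPM in primary 7 and 1.20 CPM in the parental line, and at 0 in CTC 3, metastasis 3 and metastasis 5. Tfcp2l1, of the grainyhead superfamily, was at 1.92, 3.13 and 4.12 CPM in primary 5, 7 and 8, at 0.667, 0.465 and 0.747 CPM in CTC 1, 3 and 6, at 0.455, 0.419 and 1.76 CPM in metastasis 5, 3 and 7, and at 2.31 CPM in the parental line. Both groups lay below all primary lines. The CTC lines did so in 4.02% of tested genes, and metastasis and primary lines did not overlap, lower or higher, in 13.6%. The log2 changes were -2.29 (SE 0.64) for CTC and -1.80 (SE 0.63) for metastasis, with adjusted p-values of 0.994 and 0.594 (edgeR). Tfcp2l1 was named after its values were seen, so its values are a description only. Its correlation with the members ran from 0.653 (Grhl2) to 0.879 (Ovol1). Ovol3, Ehf, Elf5 and Spdef stayed at or below 0.156 CPM. The broadly expressed ETS genes Elf1, Elf2 and Elf4 were at 84.0 to 113, 111 to 196 and 39.4 to 72.2 CPM, and Ubp1 at 32.7 to 62.2 CPM. Among the other splicing regulators 10 of 12 were tested and 0 called, with 5 higher and 5 lower in metastasis against primary, and 4 higher and 6 lower in the other pairs of derived groups. Ptbp1 was at 417 to 817 CPM, Srsf1 at 209 to 743 CPM, Hnrnpm at 194 to 453 CPM and Mbnl2 at 103 to 170 CPM. Of 10 mesenchymal genes 7 were tested and 0 called. Vim, which encodes vimentin, was at 301 CPM in the parental line and between 584 (metastasis 7) and 4750 CPM (CTC 1) in the derived lines, whereas Fn1, Axl and Sparc were abundant in the parental line too, at 2860, 807 and 198 CPM. Cdh2 was at 0 in all 10 libraries.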

How the data were processed

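The deposited gene and transcript tables hold estimated counts, whole numbers that were not scaled to library size. Per the submitters' processing notes, HISAT2 2.1.0, StringTie 2.0.3 and DESeq2 1.26.0 were used on GRCm38. Their roles, the annotation release and the use of strand are not given in the sources used here. The labels name polyA RNA and a total RNA kit, so how RNA was selected is not settled. StringTie shares reads among overlapping transcripts, which can move counts between paralogs, antisense neighbours and isoforms. An assembled transcript tied to no gene can also hold reads of a named gene.

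All 10 libraries entered 1 fit of 4 groups on named genes: edgeR 4.0.16 (R 4.3.3), TMM, filterByExpr, quasi-likelihood test, Benjamini-Hochberg adjustment at 0.05 over 19936 genes. SE was taken from the F statistic (log2 change over its square root). The common biological coefficient of variation was 0.606. The replicates are lines whose independence the labels do not state, so p-values measure only the spread between them. Transcripts were treated alike, and events needed at least 20 counts per form. GENCODE M21 gave positions and transcripts, and Qki was not analysed here.

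The members and gene lists were chosen with earlier results of these data known. Named genes were all members, of each list the genes that passed and the 4 most abundant, and for members with a mean log2 CPM of at least 1 the 3 genes most correlated with each. Of genes outside this rule, Zeb1, Snai2, Snai3, Twist2, Prrx1, Tfcp2l1, Grhl3, Ovol3, Ehf, Elf5, Spdef, Cdh2 and the markers were named after their values were seen. Same-number lines (primary and metastasis 5 and 7, CTC and metastasis 3) had deviations from group means that correlated at 0.319, 0.12 and 0.406, so the numbers were treated as pairing in the alternatives with a block. This comes from the values, and CTC 6 with metastasis 7 (0.506) correlated more. Alternatives were other scalings, filters and tools (DESeq2 1.42.0, limma 3.58.1), all entries of the table, the block and leaving out each derived line.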

Additional observations from a re-analysis of the deposited data

How the results depend on the processing

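The count of members passing was 0 in all 89 alternatives, and of 493 recomputed log2 changes 464 kept their sign. Of the 29 that turned, 27 were in metastasis against CTC and the cause was not tested. Leaving out each derived line gave, in metastasis against CTC, ranges of -0.56 to 3.45 (Esrp1), -0.73 to 0.94 (Esrp2), -2.57 to 2.23 (Grhl1), -0.68 to 0.83 (Grhl2), -2.04 to 2.84 (Ovol1), -0.18 to 1.85 (Ovol2) and -1.36 to 0.92 (Elf3), and in metastasis against primary -4.93 to 0.14 (Esrp1). With all entries Elf3 was -0.01. With limma-voom the values were 0.07 (Esrp2), -0.53 (Grhl1), 0.15 (Grhl2) and -0.24 (Elf3). With the number as a random replicate block (correlation 0.484) they were -0.50 (Esrp1), 0.13 (Esrp2), -0.33 (Grhl1), 0.32 (Grhl2) and -0.16 (Elf3), and with a fixed replicate block, which leaves 1 residual degree of freedom, -3.12, 0.20, -0.14, 0.49 and -0.39. The block changed no call. Without CTC 1 Ovol1 and Elf3 were -0.10 and -0.28, without CTC 3 -0.16 and -0.30, and without CTC 6 Esrp2 and Grhl2 were 0.94 and 0.83. Without metastasis 3 Esrp2 was 0.17. In CTC against primary Esrp1 was 1.44 with the fixed block. DESeq2 called 1 member transcript (Esrp1-203) in CTC against primary, where edgeR called 0. With the first Ctnnd1 split, an alternative added after seeing the data, metastasis and CTC against primary were -0.349 and -0.764 percentage points. The other 133 recomputed isoform differences moved by less than the larger SD of the 2 groups compared. That SD could exceed the difference itself. It was 16.2 against -10.3 percentage points for Enah exon 11a in metastasis against primary. For Slk exon 13 in CTC against primary it was 23.8 against -16.9. This measure therefore cannot show whether a single line carries a difference. Depth limits Ovol2, Ovol1 and Grhl1 in CTC 1, CTC 3, metastasis 3 and metastasis 5, where most values rest on a few to 36 counts.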
